A study of Mus musculus with 6 samples.

Results

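Fat cells store triglyceride in a single large lipid droplet and are known by the hormone adiponectin (Adipoq) and the droplet coat protein perilipin 1 (Plin1). Fatty acid synthesis is a different program: ATP citrate lyase (Acly), acetyl-CoA carboxylase (Acaca) and fatty acid synthase (Fasn) build palmitate from citrate, and elongases and desaturases then extend it and add double bonds. Fat cells run this program, but so do many tumour cells, so in a whole tumour its RNA may come from either. The genes below were therefore read tumour by tumour against Adipoq and Plin1. The set holds 36 genes, 25 that mark fat cells or run their lipid store and 11 of fatty acid synthesis, out of 20482 genes in the deposited table, and all 36 symbols were found there.

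RNA was sequenced from 6 tumours of H22, a mouse hepatocellular carcinoma line, grown under the skin of wild-type male C57BL/6 mice that were 6 weeks old at injection. For the 3 lenvatinib-resistant tumours, the mice had received lenvatinib, which blocks a number of receptor tyrosine kinases, intraperitoneally at 100 mg/kg per day on 2 days a week, in 2 cycles. The hosts of the 3 lenvatinib-sensitive tumours were controls, for which the protocol names the solvent, PBS with 0.1% DMSO, and in the same phrase lenvatinib, while the treatment label of all 6 tumours says that none was given. Drug exposure and resistance cannot be told apart in this design, and the tumours hold host tissue of the flank together with cells of the injected line. Liver genes were read in every tumour, with albumin (Alb) at 112 to 198 CPM (counts scaled to the size of each library) and alpha-fetoprotein (Afp) at 11.5 to 22.8 CPM.

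Library totals were 15995403 to 17545098 counts, within 1.10-fold of each other, and 3 counts corresponded to 0.171 to 0.186 CPM. Of 14392 genes tested with edgeR's quasi-likelihood test, 0 passed at an adjusted p under 0.05, and 1404 (9.76%) had an unadjusted p under 0.05. With DESeq2, 115 genes passed after adjustment. Skeletal muscle and lymphocyte RNA stood out in single tumours. Over 13 muscle genes the summed level was 1498 CPM in sensitive tumour 1 and 301 CPM in resistant tumour 1, and between 2.86 and 101 CPM in the others. Over 7 T cell genes it was 375 CPM in sensitive tumour 2 and between 7.28 and 41.8 CPM in the others, and over 6 B and plasma cell genes 7065 CPM there and between 2.32 and 105 CPM in the others.

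The 2 fat cell markers varied widely among tumours of the same group. Adipoq (ENSMUSG00000022878, GRCm38 chromosome 16, 23146536 to 23158028) was measured at 197, 193 and 55.3 CPM in sensitive tumours 1 to 3 and at 2.62, 89.3 and 57.1 CPM in resistant tumours 1 to 3. Plin1 (ENSMUSG00000030546, chromosome 7, 79720218 to 79732903) was measured at 166, 137 and 42.8 CPM in the sensitive and at 1.37, 52.4 and 36.7 CPM in the resistant tumours. Sensitive tumours 1 and 2 were thus the highest, sensitive tumour 3 lay among resistant tumours 2 and 3, and resistant tumour 1 lay far below all others with 44 and 23 counts. The groups overlapped in both genes. In bulk RNA, fewer fat cells and less RNA per fat cell cannot be told apart.

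The start regions of these 2 markers and of 2 synthesis genes that varied far less are shown, since the contrast between the pairs carries the result. Each window runs from 250 bases before to 50 bases after the RefSeq start (GRCm38.p6), written 5′ to 3′ along the gene, and capitals mark matches on either strand to TTGCNNAA (a C/EBP site) or CCAAT (the CCAAT box). An E-box (CACGTG), a sterol regulatory element and a direct repeat of the PPAR gamma type were also searched on both strands and are in none of the 4 windows.
Adipoq, chr16:23146286-23146585, plus strand: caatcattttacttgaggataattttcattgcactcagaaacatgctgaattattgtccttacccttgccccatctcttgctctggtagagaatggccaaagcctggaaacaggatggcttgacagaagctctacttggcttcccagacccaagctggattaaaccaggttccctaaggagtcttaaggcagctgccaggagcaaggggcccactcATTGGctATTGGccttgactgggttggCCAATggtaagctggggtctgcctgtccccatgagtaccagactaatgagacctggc
Plin1, chr7:79732727-79733026, minus strand: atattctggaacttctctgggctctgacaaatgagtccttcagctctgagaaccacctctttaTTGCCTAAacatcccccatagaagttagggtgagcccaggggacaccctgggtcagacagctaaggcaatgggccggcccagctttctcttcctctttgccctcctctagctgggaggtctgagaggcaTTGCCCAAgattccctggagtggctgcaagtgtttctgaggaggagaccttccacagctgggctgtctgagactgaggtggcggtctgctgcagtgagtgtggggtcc
Fasn, chr11:120824498-120824797, minus strand: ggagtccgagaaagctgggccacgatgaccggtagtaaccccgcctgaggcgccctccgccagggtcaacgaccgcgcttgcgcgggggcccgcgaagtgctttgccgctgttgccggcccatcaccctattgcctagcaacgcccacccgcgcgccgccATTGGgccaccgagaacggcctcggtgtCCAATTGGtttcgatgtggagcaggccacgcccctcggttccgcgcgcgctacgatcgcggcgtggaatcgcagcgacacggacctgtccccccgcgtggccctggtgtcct
Acly, chr11:100527951-100528250, minus strand: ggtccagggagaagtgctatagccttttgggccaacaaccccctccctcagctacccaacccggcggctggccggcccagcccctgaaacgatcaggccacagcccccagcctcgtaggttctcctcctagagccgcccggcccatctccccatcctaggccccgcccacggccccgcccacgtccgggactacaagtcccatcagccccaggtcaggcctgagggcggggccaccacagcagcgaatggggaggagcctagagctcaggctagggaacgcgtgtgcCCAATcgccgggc

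The Adipoq window holds CCAAT 3 times, starting 34, 27 and 7 bases before the start. The Plin1 window holds the C/EBP letters 2 times, 187 and 58 bases before the start. The Fasn window holds CCAAT 3 times, at 90, 62 and 59 bases before the start, the last 2 overlapping on opposite strands, and the Acly window holds it once, after the start. Windows were used for 25 of the 36 genes, 35 windows in all. Member windows on chromosome 18, where Cidea lies, were left out, while the count over all windows keeps that chromosome. CCAAT occurred in 14 of these 35 and in 37.4% of all 32851 windows, the C/EBP letters in 4 and in 10.8%, and the E-box in 3 and in 7.15%. The exact letters searched for the sterol element and the direct repeat were in none of the 35 and in 0.0913% and 0.0396% of all windows.

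To describe which genes varied as the markers did, each gene was set against the mean log2 CPM of Adipoq and Plin1 over the 15 pairs of tumours. A gene is said to follow the markers where at least 13 pairs differed in the same direction and its own log2 range was at least 25% of theirs, and not to follow them where fewer than 10 pairs did or its range was under 10% of theirs. By this rule 18 of the other 34 genes followed the markers, 9 lay between and 7 did not follow, against 6.43% of 14361 tested genes with a unique symbol that followed. Of the fat cell genes 17 of 23 followed, and of the synthesis genes 1 of 11, Scd1. The last count was 2 without sensitive tumour 3 or resistant tumour 2 (Mlxipl added), 2 without resistant tumour 1 (Me1 added) and 3 without resistant tumour 3 (Mlxipl and Thrsp added). This is a description of 6 tumours with no test. Following the markers does not show that RNA came from fat cells. Of 3 tested B and plasma cell genes 2, Jchain and Ighg2c, also followed, with 13 of 15 pairs each and sensitive tumour 2 the highest. Correlation coefficients are not given because resistant tumour 1 stands apart: the gap from it to the next tumour is 0.70 of the whole range of the markers.

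**Figure D1:**
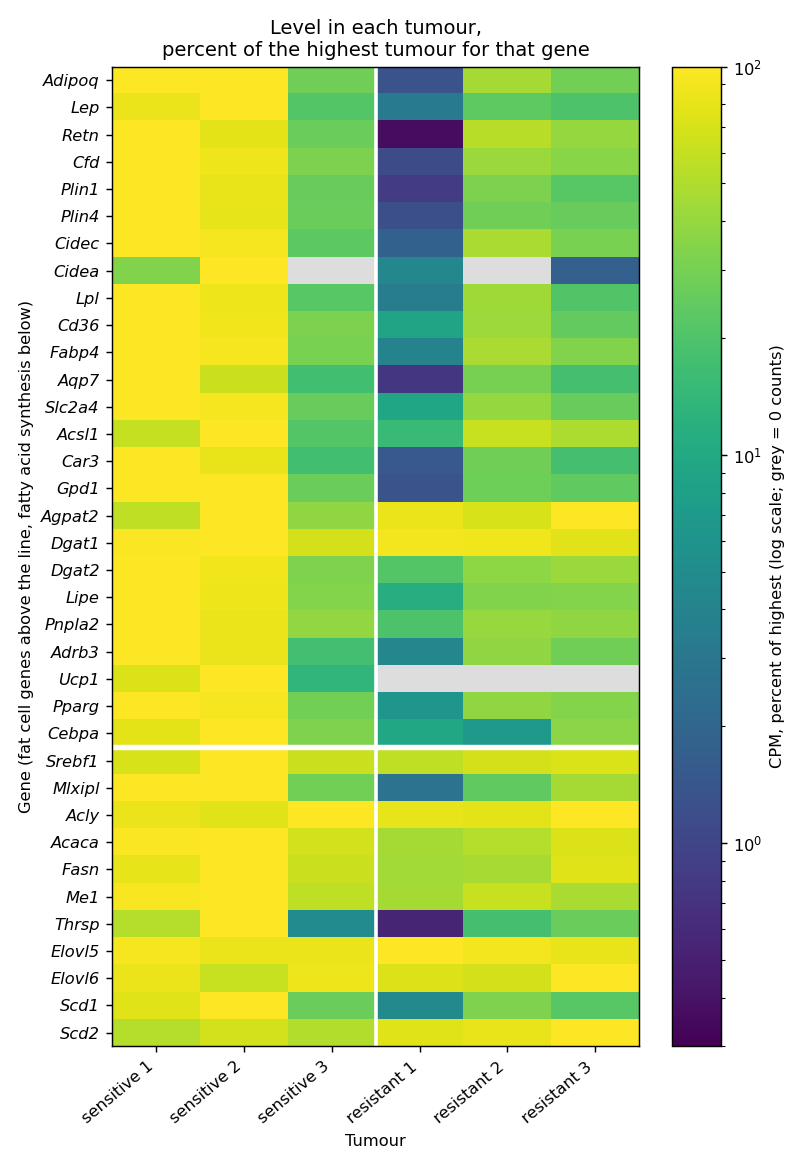
Level of each of the 36 genes in the 6 tumours, as a percent of the CPM in the tumour where that gene is highest (colour, log scale; grey means 0 counts). Most fat cell genes are darkest in resistant tumour 1, while Acly, Elovl5, Elovl6, Scd2, Agpat2 and Dgat1 keep 73.7% or more of their highest level there.

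Among the hormones, the serine protease adipsin (Cfd), which acts in the alternative complement pathway, kept a nearly constant proportion to Adipoq. It stood at 732, 627 and 232 CPM in the sensitive and at 8.26, 305 and 262 CPM in the resistant tumours, and its ratio to Adipoq differed between the tumours by at most 1.45-fold while Adipoq itself differed by 75.2-fold. Leptin (Lep), the hormone that reports fat stores to the brain, stood at 42.3, 50.3 and 10.6 CPM in the sensitive and at 1.61, 11.9 and 9.99 CPM in the resistant tumours. Its order matched the markers in 14 of 15 pairs. Resistin (Retn), a hormone of fat cells in mice, stood at 49.3, 39.0 and 13.1 CPM in the sensitive and at 0.18, 26.6 and 19.5 CPM in the resistant tumours. In resistant tumour 1 that was 3 counts.

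The lipid droplet coat genes divided. Perilipin 4 (Plin4) and Cidec, which helps lipid droplets fuse and grow, followed the markers, with ranges of 3.69 to 297 CPM and 3.15 to 171 CPM. Cidea, the related gene best known from brown fat in mice, did not. It stood at 36, 113 and 0 counts in the sensitive and at 5, 0 and 2 counts in the resistant tumours, so that sensitive tumour 2 held most of it. Ucp1, the uncoupling protein that defines heat-producing brown and beige fat, was near the floor with 5, 7 and 1 counts in the sensitive tumours and 0 in each resistant tumour. Neither gene passed the filter on low counts, and the other 34 did.

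Of the genes that take up and handle fatty acids, glycerol and glucose, 6 of 7 followed the markers. Lipoprotein lipase (Lpl), which frees fatty acids from blood lipoproteins, stood at 1025, 889 and 225 CPM in the sensitive and at 36.3, 445 and 210.1 CPM in the resistant tumours. The scavenger receptor and fatty acid carrier Cd36 stood at 421, 367 and 135 CPM in the sensitive and at 37.3, 179 and 105 CPM in the resistant tumours. Both ordered the tumours as the markers did in 15 of 15 pairs but spanned a smaller range than they did, and in resistant tumour 1 Lpl had 3.54% and Cd36 8.87% of its highest level, against 1.33% for Adipoq. Lpl and Cd36 are also known from macrophages, and Cd36 from endothelial cells. Over 10 macrophage genes the summed level was 792 to 1375 CPM in the sensitive and 631 to 1892 CPM in the resistant tumours, with Adgre1, Csf1r and Cd68 present in all 6. Over 11 endothelial genes it was 241 to 550 CPM in the sensitive and 170 to 279 CPM in the resistant tumours, with Pecam1, Cdh5 and Kdr present in all 6. None of the macrophage genes followed the markers, and 2 endothelial genes, Pecam1 and Kdr, did, where 6.43% of all tested genes followed. Of the 10 macrophage genes 6 lay between and 4 did not follow. Of the 11 endothelial genes 8 lay between and 1 did not follow. Resistant tumour 1, the lowest in Adipoq and Plin1, was also the lowest in both sums. The part of these cells in the levels of Lpl and Cd36 was not tested.

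Car3, a carbonic anhydrase abundant in fat cells and slow muscle fibres, stood at 2145, 1755 and 366 CPM in the sensitive and at 32.8, 605 and 382 CPM in the resistant tumours. The fatty acid binding protein gene Fabp4 (32.2 to 805 CPM), the glycerol channel gene Aqp7 (0.12 to 15.9 CPM) and the insulin-responsive glucose transporter gene Slc2a4 (2.14 to 23.1 CPM) also followed. Car3 and Slc2a4 are also known from muscle. Sensitive tumour 1 was the highest in summed muscle genes and in both, while resistant tumour 1, with Acta1, Ckm and Myh1 at 89.3, 21.0 and 24.7 CPM, was the second highest in muscle genes and the lowest in both. The part of muscle in their levels was not tested. Acsl1, which activates long-chain fatty acids with coenzyme A, lay between, at 167, 276 and 58.5 CPM in the sensitive and at 42.1, 168 and 134 CPM in the resistant tumours.

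Triglyceride synthesis split into genes that followed fat cells and genes that did not. Gpd1, which makes glycerol 3-phosphate, stood at 204, 204 and 54.8 CPM in the sensitive and at 2.73, 57.0 and 49.8 CPM in the resistant tumours, in the order of the markers in 15 of 15 pairs. Dgat2, an enzyme of the last step to triglyceride, followed over a smaller range, at 114, 100.1 and 37.5 CPM in the sensitive and 24.1, 42.9 and 48.1 CPM in the resistant tumours. Dgat1, the other enzyme of that step, did not follow and was nearly level at 39.4, 40.3 and 27.7 CPM against 36.7, 35.8 and 31.3 CPM. Agpat2, which adds the second fatty acid to the glycerol backbone, did not follow either, at 38.4, 66.7 and 25.6 CPM in the sensitive and at 56.2, 47.3 and 65.2 CPM in the resistant tumours. Resistant tumour 1 thus held 84.2% of the highest Agpat2 level with 1.33% of the highest Adipoq level.

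The 3 genes of lipolysis all followed, each over a smaller log2 range (0.36 to 0.68 of that of the markers) than any of the hormones. Lipe, hormone-sensitive lipase, stood at 198, 169.7 and 67.0 CPM in the sensitive and at 22.1, 65.9 and 67.0 CPM in the resistant tumours. Pnpla2, adipose triglyceride lipase, stood at 295, 247 and 116 CPM in the sensitive and at 58.8, 121 and 112 CPM in the resistant tumours. Resistant tumour 1 kept 11.1% of the highest Lipe and 19.9% of the highest Pnpla2 level. Adrb3, the beta-3 adrenergic receptor of fat cells, ran from 1.84 to 41.9 CPM.

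Of the transcription factors, Pparg, the master regulator of fat cell formation, followed the markers, at 46.4, 42.8 and 13.4 CPM in the sensitive and 2.97, 17.5 and 15.8 CPM in the resistant tumours. Cebpa, its partner in mature fat cells, matched the markers in 10 of 15 pairs. It stood at 58.5, 73.5 and 23.7 CPM in the sensitive and at 7.25, 5.07 and 26.8 CPM in the resistant tumours, so resistant tumour 2 held the least Cebpa while it held the most Adipoq and Plin1 of its group. Mlxipl, which encodes the carbohydrate-sensing factor ChREBP, lay between at 19.6, 19.5 and 5.65 CPM against 0.53, 4.78 and 8.86 CPM. Srebf1, which encodes the sterol-regulated factor SREBP-1 that drives fatty acid synthesis genes, varied little, at 79.9, 113 and 70.1 CPM in the sensitive and 64.9, 76.7 and 81.5 CPM in the resistant tumours.

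Of the core enzymes of fatty acid synthesis, Acly did not follow the fat cell markers, while Fasn, Acaca and Me1 lay between. Acly stood at 453, 399.8 and 522 CPM in the sensitive and at 431, 417 and 534 CPM in the resistant tumours, matching the markers in 5 of 15 pairs. Fasn (ENSMUSG00000025153, chromosome 11, 120805846 to 120824547) was measured at 764, 942 and 591 CPM in the sensitive and at 422, 439 and 713 CPM in the resistant tumours, and Acaca at 136, 141 and 94.8 CPM against 64.9, 74.4 and 105 CPM. Both lay between by the rule, with 11 of 15 pairs and ranges of 0.18 and 0.17 of that of the markers. Resistant tumours 1 and 2 were the lowest in both genes and differed little from each other, although Adipoq differed between them by 34.1-fold. Malic enzyme (Me1), a source of NADPH for the pathway, ordered 14 of 15 pairs as the markers did but over a range of only 0.18 of theirs, at 124, 130.2 and 75.3 CPM against 58.9, 79.5 and 62.0 CPM. These small range shares depend on resistant tumour 1. Without it they were 0.56 for Fasn, 0.47 for Acaca and 0.54 for Me1. Me1 then followed the markers, and Fasn and Acaca did not follow.

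Thrsp, a small nuclear protein that promotes lipogenesis, had the widest range in this part of the pathway. It stood at 45.2, 87.2 and 4.34 CPM in the sensitive and at 0.48, 15.8 and 23.3 CPM in the resistant tumours, a range 1.11 times that of the markers. With 12 of 15 pairs it fell just short of the rule. Resistant tumour 3 (23.3 CPM) exceeded sensitive tumour 3 (4.34 CPM) and the resistant tumour with 15.8 CPM, against the order of the marker mean. The sensitive tumours with 45.2 and 87.2 CPM were also in the opposite order to that mean.

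The desaturases Scd1 and Scd2, both of which introduce the first double bond into saturated fatty acids, went apart. Scd1 (ENSMUSG00000037071, chromosome 19, 44394455 to 44407879) was measured at 3461, 4647 and 1221 CPM in the sensitive and at 215, 1518 and 1016 CPM in the resistant tumours and matched the markers in 14 of 15 pairs. Scd2 (ENSMUSG00000025203, chromosome 19, 44293674 to 44306864) was measured at 258, 334 and 254 CPM in the sensitive and at 371, 408 and 498 CPM in the resistant tumours and matched them in 5 of 15 pairs. Every resistant tumour held more Scd2 than every sensitive tumour, as was so for 8.41% of all genes tested. On the deposited FPKM scale, which allows levels of different genes to be compared per length, Scd1 exceeded Scd2 by 15.1, 15.7 and 5.42 times in the sensitive and by 4.19 and 2.30 times in resistant tumours 2 and 3. In resistant tumour 1 the ratio was 0.65, so Scd2 was the more abundant. The genes are close relatives and neighbours, and no source used here states how reads that match both were counted, so the ratio is uncertain to that extent. Sebaceous glands of the skin are also known for Scd1. Of 11 sebaceous and skin genes 7 were in the table, with a summed level of 30.1 to 78.2 CPM in the sensitive and 17.95 to 62.7 CPM in the resistant tumours, most of it from Mgst1, which many cell types express. The more specific Awat2, Mc5r, Krt79 and Scd3 reached at most 1.67 CPM in any tumour, and Awat2 was at 0 in each resistant tumour. The elongases Elovl5 (152 to 186 CPM) and Elovl6 (91.6 to 149.9 CPM) did not follow, and their highest tumour exceeded the lowest by 1.22-fold and 1.64-fold.

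**Figure D2:**
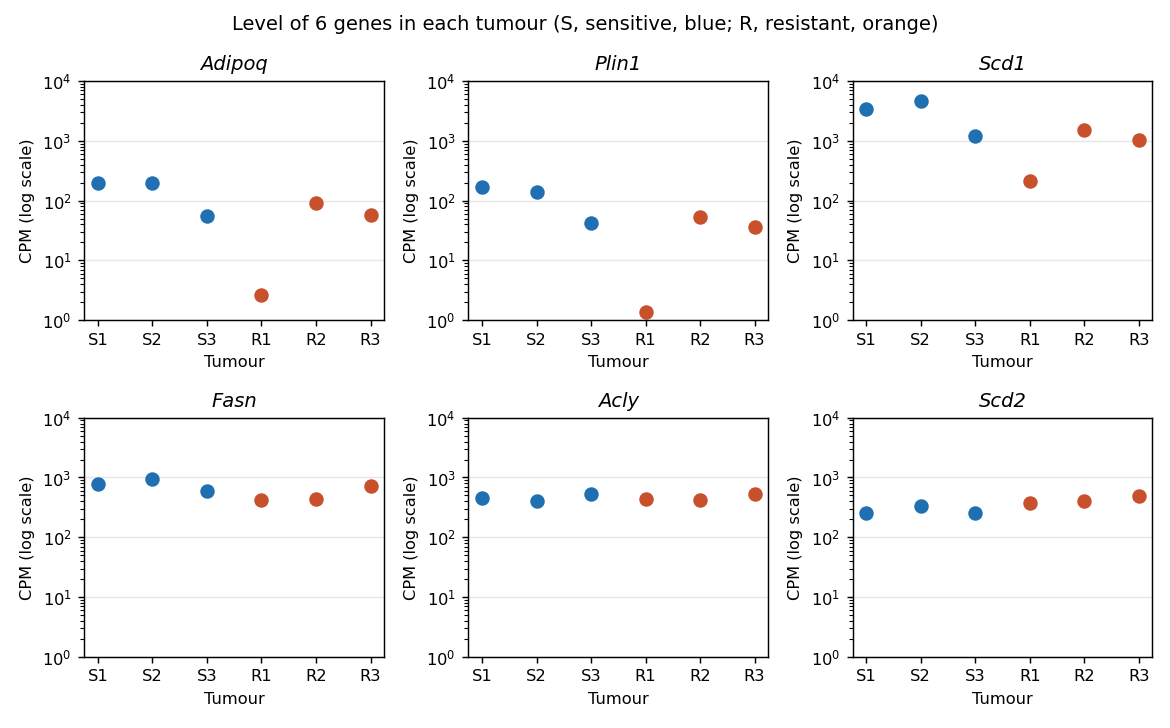
CPM (log scale) of 6 genes in sensitive tumours 1 to 3 (S, blue) and resistant tumours 1 to 3 (R, orange), 1 point per tumour. Adipoq, Plin1 and Scd1 drop in resistant tumour 1 to 2.62, 1.37 and 215 CPM, while Fasn, Acly and Scd2 stay between 254 and 942 CPM in all 6.

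**Figure D3:**
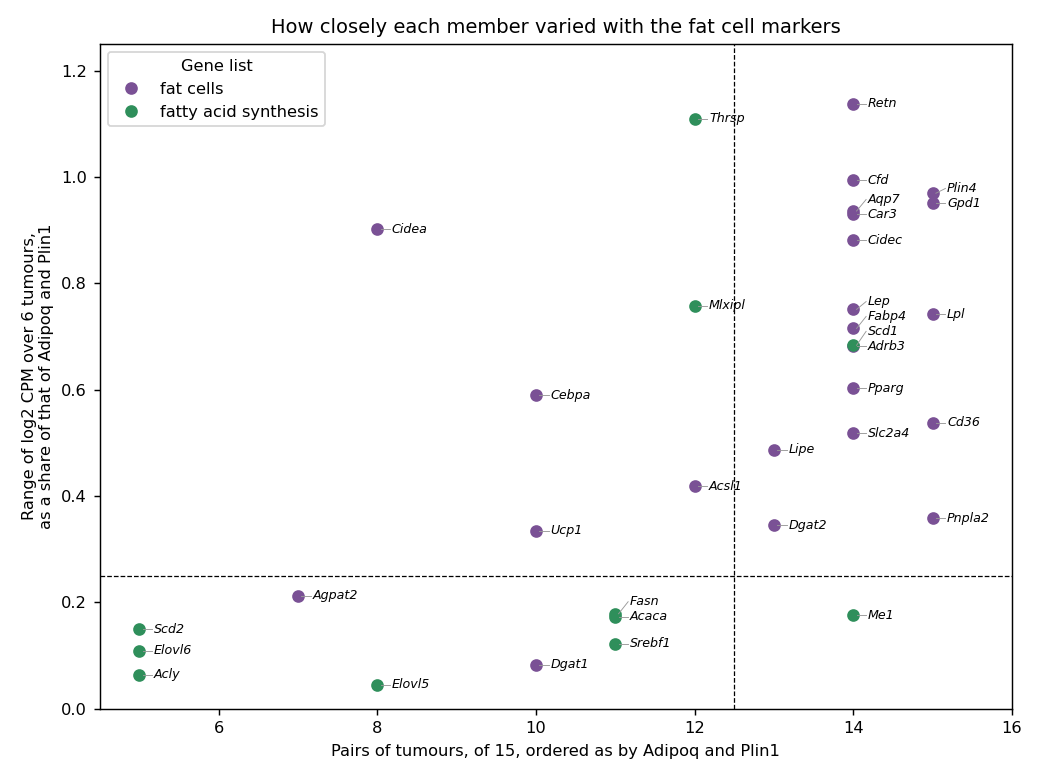
Each of the 34 genes other than Adipoq and Plin1 by the number of tumour pairs, of 15, ordered as by these markers (x) and by its log2 CPM range over the 6 tumours as a share of theirs (y). Dashed lines mark the rule of 13 pairs and 0.25, and Scd1 is the only synthesis gene (green) in the upper right field, at 14 pairs and 0.68.

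Folds between tumours of the same group involve no comparison of the groups, but they come from the same 6 tumours as the rule and describe them in another way. From resistant tumour 1 to resistant tumour 2, Adipoq was 34.1-fold and Plin1 38.3-fold higher. The 21 fat cell genes with over 3 counts in both tumours had a median of 7.40-fold (0.70 to 38.3). They include Adipoq and Plin1, which is the highest, and were taken with no regard to whether they followed. Over the same pair Fasn was 1.04-fold, Acaca 1.15-fold, Acly 0.97-fold, Srebf1 1.18-fold and Me1 1.35-fold, and over all genes tested the median was 1.00-fold. Scd1 was 7.06-fold, Mlxipl 8.93-fold and Thrsp 33.3-fold higher. From sensitive tumour 3 to sensitive tumour 1, Adipoq was 3.56-fold and Plin1 3.87-fold higher, with Fasn at 1.29-fold, Acly at 0.87-fold, Scd1 at 2.84-fold and Scd2 at 1.02-fold. Some synthesis genes differed more in other pairs. From resistant tumour 1 to resistant tumour 3, Fasn was 1.69-fold, Acaca 1.62-fold, Acly 1.24-fold, Srebf1 1.26-fold and Me1 1.05-fold, with Adipoq at 21.8-fold. From sensitive tumour 3 to sensitive tumour 2, Fasn was 1.59-fold, Acaca 1.49-fold, Acly 0.77-fold, Srebf1 1.61-fold and Me1 1.73-fold, with Adipoq at 3.49-fold. Each fold compares 2 single tumours and has no replicate error.

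**Figure D4:**
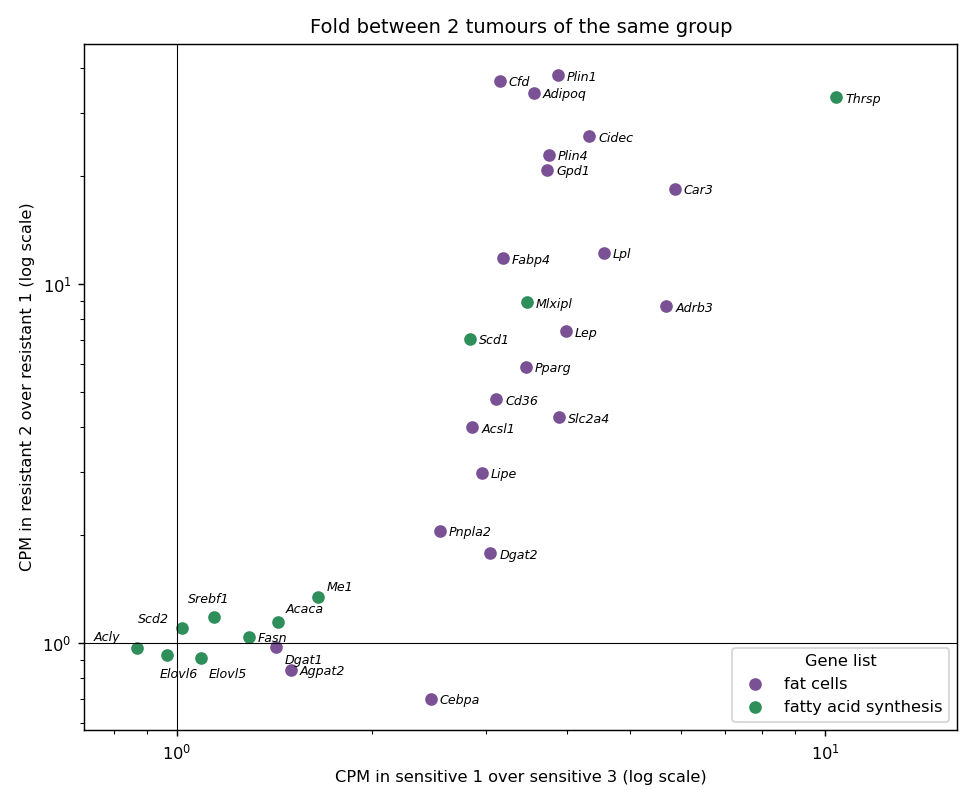
Fold in CPM between sensitive tumours 1 and 3 (x) and between resistant tumours 2 and 1 (y), both on log scales, 1 point per gene with over 3 counts in every tumour. Fat cell genes (purple) lie mostly to the upper right with Scd1, Mlxipl and Thrsp, while Fasn, Acaca, Acly, Me1, Srebf1, Scd2, Elovl5, Elovl6, Dgat1 and Agpat2 lie near 1 on the y axis.

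Between the groups, no member passed the test. Of the 34 tested members 0 passed the edgeR threshold after adjustment, as did 0% of all genes, and the smallest adjusted p was 0.510. DESeq2 also called 0 of the members, where 0.789% of the genes it tested were called. At an unadjusted p under 0.05 edgeR gave 9, of which 8 were lower and 1 higher in resistant tumours, against 5.73% of all genes lower and 4.02% higher. This count was 1, 2 and 16 when sensitive tumours 1, 2 and 3 were left out in turn, 3 when resistant tumour 1 was left out, and 15 with DESeq2, so it depends on single tumours and on the tool. The tested fat cell genes had a negative log2 fold change in 22 of 23 cases with a median of -1.50, where the median over all genes was -0.02 and 52.7% were negative. That median was -1.04 without resistant tumour 1, the tumour nearly free of fat cell RNA, and -2.04 without resistant tumour 2.

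The fat cell genes had wide errors because the tumours of each group differed. The log2 fold change (resistant minus sensitive) was -1.58 ± 1.06 (SE) for Adipoq, from means of 148 ± 80.6 and 49.7 ± 43.8 CPM (SD, n = 3 each), and -1.93 ± 1.08 for Plin1. The smallest unadjusted p values among them were those of Pnpla2 (-1.17 ± 0.41), Cebpa (-1.99 ± 0.72) and Lipe (-1.49 ± 0.54), followed by Lep (-2.14 ± 0.83), Dgat2 (-1.13 ± 0.45) and Cd36 (-1.53 ± 0.63), each with an adjusted p of 0.510. Lipe alone among the tested fat cell genes had groups that did not overlap, by a margin of well under 1 CPM, where 16% of all genes tested had such groups, 7.54% with the resistant and 8.41% with the sensitive tumours lower. Agpat2 was the only fat cell gene with a positive value, 0.37 ± 0.35.

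The synthesis genes had a median log2 fold change of -0.55, negative in 7 of 11, with smaller errors for those that did not follow fat cells. Scd1 had -1.76 ± 0.77, Thrsp -1.79 ± 1.33 and Mlxipl -1.66 ± 0.92. Me1 had -0.72 ± 0.24, Acaca -0.61 ± 0.24 and Fasn -0.55 ± 0.28, the first 2 with an unadjusted p of 0.022 and 0.039 and an adjusted p of 0.510. Acly (0.01 ± 0.17), Elovl5 (0.07 ± 0.12), Elovl6 (0.06 ± 0.20) and Srebf1 (-0.23 ± 0.21) lay within about 1 SE of 0. Scd2 was the member with the smallest p and the only one with an unadjusted p under 0.05 that was higher in resistant tumours, at 282 ± 45.2 against 425 ± 65.3 CPM (SD, n = 3 each), a log2 fold change of 0.59 ± 0.18 (unadjusted p = 0.014 and adjusted p = 0.510, edgeR). Its value ran from 0.47 to 0.73 when each tumour was left out in turn.

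**Figure D5:**
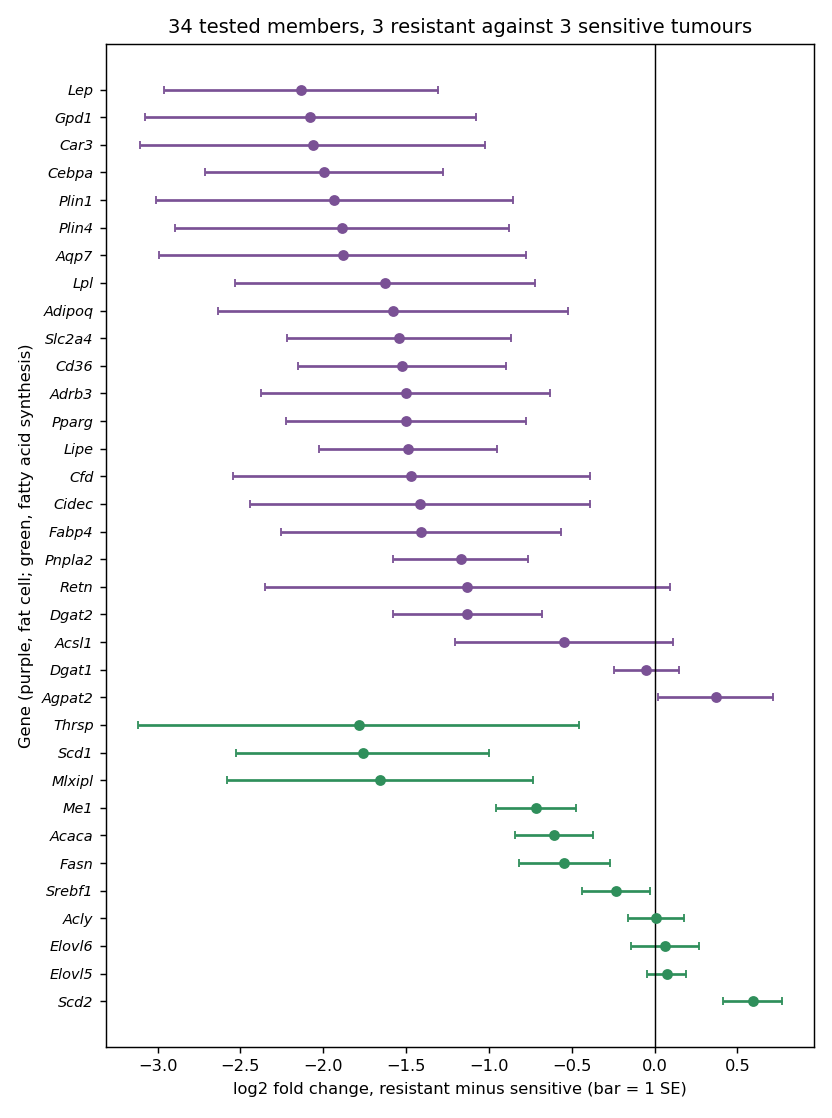
Log2 fold change of the 34 tested members, resistant minus sensitive, with 1 SE from edgeR's fit, fat cell genes in purple and synthesis genes in green. The fat cell genes spread around a median of -1.50 with wide bars, while Acly, Elovl5 and Elovl6 lie near 0 and Scd2 lies at 0.59.

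Per length, the members spanned a wide range of levels. By the median deposited FPKM over the 6 tumours, Cfd (316) and Scd1 (285) were the highest, ahead of Car3 (136), Scd2 (64.8), Fabp4 (64.6), Acly (52.6), Adipoq (46.9), Fasn (46.6), Lpl (44.0) and Elovl5 (40.9). Neighbours in this order, such as Adipoq and Fasn, overlapped over the tumours. The lowest were Mlxipl (0.84), Cidea (0.18) and Ucp1 (0.02).

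Further genes of the same pathways, from lists written beside the members, were read by the same rule on the same tumours. These lists too were chosen with earlier results of these data known, so they are no independent support for the division. Of 23 tested further fat cell genes 17 followed the markers, where 6.43% of all tested genes did, and all 23 had a negative log2 fold change (median -1.40). At an unadjusted p under 0.05, 2 were lower, where 5.73% of all genes tested were, and 0 passed after adjustment. The further fat cell genes with the smallest p were the natriuretic peptide clearance receptor Npr3 (-2.73 ± 0.83), orosomucoid (Orm1, -1.37 ± 0.45), the activin receptor Acvr1c (-2.21 ± 0.94) and the amine oxidase Aoc3 (-1.63 ± 0.71). Of 38 tested further genes of fatty acid and triglyceride synthesis 5 followed and 25 did not, where 6.43% of all tested genes followed. Their median log2 fold change was -0.21. Among them 1 gene had an unadjusted p under 0.05, where 9.76% of all genes tested did. That gene was Acacb, the carboxylase that limits fatty acid oxidation, which followed the markers and stood at 36.8, 48.6 and 8.80 CPM in the sensitive and 4.46, 13.7 and 11.3 CPM in the resistant tumours. Next came the citrate carrier Slc25a1 (-0.54 ± 0.23), the dicarboxylate carrier Slc25a10 (-0.59 ± 0.25) and the acetate-activating enzyme Acss2 (-0.77 ± 0.35).

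Of 21 tested regulators 2 followed and 14 did not, where 6.43% of all tested genes followed. At an unadjusted p under 0.05, 4 were lower and 2 higher, against 5.73% and 4.02% of all genes tested, and 0 passed after adjustment. Srebf2, which encodes the factor of cholesterol synthesis genes, stood at 109, 151 and 140.0 CPM in the sensitive and 164, 164 and 219 CPM in the resistant tumours (log2 fold change 0.45 ± 0.18). Cebpb, a factor that acts early in fat cell formation, had 0.45 ± 0.17, Akt2, a kinase of insulin signalling, -0.38 ± 0.14, and Prkaa2, a subunit of AMP-activated protein kinase, -2.07 ± 0.69.

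Over all tested genes outside the set whose mean log2 CPM reached 1, the 8 ranked most like the mean of Adipoq and Plin1 by Pearson's r over the 6 tumours were Slc7a10, Adora1, Timp4, Bche, Hcar1, Slc16a7, Mrap and Ghr. They matched the markers in 13 to 15 of 15 pairs, with ranges of 0.71 to 1.08 of theirs. Since resistant tumour 1 stands apart, this ranking is not an order of closeness: 65 of the 14361 genes matched in all 15 pairs, and Adora1, among the 8, in 13. Slc7a10, an amino acid transporter of fat cells, stood at 22.6, 20.0 and 5.71 CPM in the sensitive and 0.06, 8.90 and 5.41 CPM in the resistant tumours, and the growth hormone receptor Ghr at 233, 171 and 73.9 CPM against 4.34, 73.7 and 55.0 CPM. Slc7a10 and Mrap, an accessory protein of the ACTH receptor, are also in the list of further fat cell genes.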

How the data were processed

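RNA from 6 tumours, 3 per group by sample title, was sequenced after TRIzol extraction and Vazyme VAHTS Universal V6 library preparation, per the labels' protocols. HISAT2, StringTie and edgeR are listed, with no version, in the submitters' processing notes. No source used here states the genome build, the strand handling or the rule for reads that match more than 1 gene. The authors deposited raw read counts per gene and, in a separate table, FPKM, which the file headers name. Tumours of 1 group are biological replicates per the design text.

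The test on counts was that of edgeR 4.0.16 under R 4.3.3 (filterByExpr, TMM, quasi-likelihood F-test, no block, Benjamini-Hochberg over all genes tested). CPM use TMM-scaled library sizes, and log2 CPM a prior count of 2. The script was tested on simulated data. Alternatives were other scalings and filters, DESeq2 1.42.0, limma 3.58.1 with voom or on log2(FPKM + 1) and log2(FPKM + 0.1), a replicate block, and each tumour left out. All 36 members are described. From each further list up to 4 tested genes with the smallest p were named, from each marker list up to 3 in list order, and beyond the lists the 8 most like the markers; Alb, Afp and the examples with values per tumour were picked from these. The members and lists were chosen with earlier results of these data known. Gene positions come from GENCODE M21 (GRCm38), matched by identifier, and start regions from RefSeq, matched by symbol.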

Additional observations from a re-analysis of the deposited data

How the results depend on the processing

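The number of genes called was 0 under every scaling and filter tried, under limma-voom, with the replicate block and without any single tumour, and 115 with DESeq2. The number of members with an unadjusted p under 0.05, 9 in the reported fit, was 15 with DESeq2, 2 with the replicate block, and 1 to 16 when each tumour was left out. The replicate numbers are not said to pair tumours: deviations of same-numbered tumours correlated at 0.05, 0.31 and -0.16, and not every tumour was most like its own number. Of 544 fold changes recomputed over 16 settings for the 34 tested members, 533 kept their direction and side of the threshold. The other 11, in 4 genes, reversed. For Dgat1 (-0.05) these were 0.033 by library size alone and 0.044 and 0.052 on log2(FPKM + 1) and log2(FPKM + 0.1), and -0.20 to 0.053 with a tumour left out. With a tumour left out, Acly ran from -0.11 to 0.12, Elovl6 from -0.12 to 0.17 and Acsl1 from -0.95 to 0.025. Acsl1 stood at -0.545 in the reported fit and reached 0.025 without sensitive tumour 2. The cause was not tested. Between 16 and 20 members followed the markers under the alternatives, against 18. Lipe and Dgat2, both at 13 of 15 pairs, dropped out without sensitive tumour 1, sensitive tumour 2 or resistant tumour 1, and Lipe also by library size alone and on log2(FPKM + 1). Without resistant tumour 1, Fasn and Acaca did not follow (6 of 10 pairs each), Me1 did (9 of 10), and Scd1 kept its class. Mlxipl followed without sensitive tumour 3, resistant tumour 2 or resistant tumour 3, and Thrsp without resistant tumour 3 (9 of 10 pairs each), so 1 to 3 synthesis genes followed. Members with few counts, above all Cidea and Ucp1, are limited by depth.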

Other observations

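Genes of brown and beige fat outside the set divided as well. Of 13 genes 10 could be tested, and 5 of these followed Adipoq and Plin1, where 6.43% of all tested genes did. The 5 include Otop1, which is not read for the reason given below. Of the other tested genes 1 lay between and 4 did not follow. The log2 fold change was negative in 7 of the 10 and positive in 3. The amino acid transporter gene Slc36a2 stood at 28.9, 31.1 and 11.2 CPM in the sensitive and at 0.30, 9.67 and 8.38 CPM in the resistant tumours, and the potassium channel gene Kcnk3 at 3.91, 3.94 and 1.26 CPM against 0.06, 1.31 and 0.59 CPM. Prdm16, a regulator of brown fat identity, had a log2 fold change of -2.05 ± 0.61, with an unadjusted p of 0.0126 and an adjusted p of 0.510 by edgeR. The proton channel gene Otop1 had 15, 18 and 14 counts in the sensitive and 0, 3 and 1 in the resistant tumours. It passed the filter on low counts through the sensitive tumours alone, so neither its test nor its place among the 5 is read here. Ppargc1a, the coactivator of mitochondrial genes, did not follow and stood at 69.1, 59.3 and 98.4 CPM in the sensitive and 80.8, 76.2 and 70.0 CPM in the resistant tumours.

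Of 7 fibroblast genes 0 followed the markers, 4 lay between and 3, the collagen genes Col1a1, Col1a2 and Col3a1, did not follow. Their summed level, mostly from these collagens, was 3877, 3131 and 1689 CPM in the sensitive and 1986, 6532 and 4953 CPM in the resistant tumours. Resistant tumour 1 exceeded sensitive tumour 3 in the 3 collagen genes and Pdgfrb, was level with it in Dcn (109.6 against 108.4 CPM), and lay lower in Pdgfra (23.5 against 27.3 CPM) and Lum (14.5 against 15.5 CPM).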
